A study of Homo sapiens with 6 samples.

Results

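The human RAB genes encode the largest branch of the RAS superfamily of small GTPases. The members described here are the genes whose symbol in the authors' table is RAB, a number and at most 1 letter. There are 64 of them among 78304 genes in the table, and no symbol occurs on more than 1 row. Poly(A) RNA was sequenced from Huh7, a cell line derived from a human liver cancer (hepatocellular carcinoma), labelled as wild type. Cells were seeded for 24 h and then exposed for 24 h to the compound 16'-DEC (3 libraries) or to its vehicle DMSO (3 libraries). No dose is stated in the labels, and the compound is named by its code alone. The series' title names autophagy, and membrane traffic to the lysosome runs through several of these GTPases. Whether the replicates were separate cultures is not stated; the p-values thus reflect the spread between these libraries, which may be technical.

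A RAB protein switches between a GTP-bound form, which recruits effectors to a membrane, and a GDP-bound form, which a dissociation inhibitor (GDI) keeps soluble. Exchange factors (GEFs) load GTP, and GTPase-activating proteins (GAPs) trigger its hydrolysis. Prenyl groups, added near the C-terminus by an enzyme that needs an escort protein to present the RAB, anchor it in the membrane. Each RAB marks particular compartments, and many exist as close paralogs that share most of their sequence. In liver cells they guide the secretion of plasma proteins, the uptake of receptors and the fusion of autophagosomes with lysosomes.

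Values are TPM, which are scaled to length and to a fixed sum per library and carry no depth. Between 13131 and 13459 genes per library reached 1 TPM with 16'-DEC, and between 14936 and 15118 with DMSO; the part of this difference in the results was not tested. Of 12 hepatocyte and hepatoma markers, 12 had a mean of at least 1 TPM. Their summed level was 15434 to 15745 TPM with 16'-DEC and 15741 to 16022 TPM with DMSO, but single markers moved apart. AFP (alpha-fetoprotein) was at 827 to 1043 TPM with 16'-DEC and 2510.1 to 2849 TPM with DMSO, and KRT8 (a keratin of simple epithelia) at 1824 to 1915 TPM with 16'-DEC and 865 to 1028 TPM with DMSO. Of 10 markers of fibroblasts, leukocytes and endothelium, 2 reached a mean of 1 TPM. Their sum was 37.6 to 46.4 TPM with 16'-DEC and 18.5 to 21.4 TPM with DMSO, most of it CD68, a lysosomal membrane glycoprotein. DCN and CD3E were listed at 0 in all 6 libraries. The part of these markers' differences in the results was not tested either. In these bulk libraries fewer cells of a kind and less RNA per cell cannot be told apart. Libraries correlated across genes at 0.990 to 0.994 within 16'-DEC, 0.982 to 0.989 within DMSO and 0.898 to 0.922 across groups (r of log2(TPM + 1) over the genes tested).

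Of the 64 RAB genes, 46 averaged 1 TPM or more and were tested, as rows of a limma fit over 14275 genes on log2(TPM + 1). With a threshold of 0.05 on the Benjamini-Hochberg adjusted p, 12 rose, 17 fell and 17 did not pass. Over all genes tested, 22.7% were higher, 48.9% were lower and 71.5% passed in either direction. The share of RAB genes was 26.1% higher and 37.0% lower. Their median change was -0.041, and that of all genes tested was -0.31. In 33 of the 46 RAB genes the libraries of the groups did not overlap, as in 75.3% of all genes tested. Changes are 16'-DEC minus DMSO on the log2(TPM + 1) scale, which understates those of low genes.

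The balance of calls depended on scaling. Median-of-ratios scaling raised the median change of all genes by 0.29 and quantile normalization raised it by 0.41. With the first, 23 RAB genes were higher and 12 lower, where 37.1% of all genes were higher and 37.7% lower. With the second, 25 were higher and 13 lower, where 42% and 33.3% of all genes were. An adjustment for transcript GC content and length, which also re-centres each library, left 23 higher and 9 lower, against 34.5% and 31.7% of all genes. Where GC adjustment is named below, this adjustment for both properties is meant. A call after it compares a gene with genes of like GC content and length, so it can be higher where the TPM fell. RAB1B, RAB3B, RAB3D, RAB4B, RAB5C, RAB7A, RAB27A, RAB32 and RAB35 were called higher in each of these 4 settings, and RAB12, RAB23 and RAB28 were called lower in each. No share of all genes called alike in all 4 settings was taken, so these members cannot be set against other genes.

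**Figure D1:**
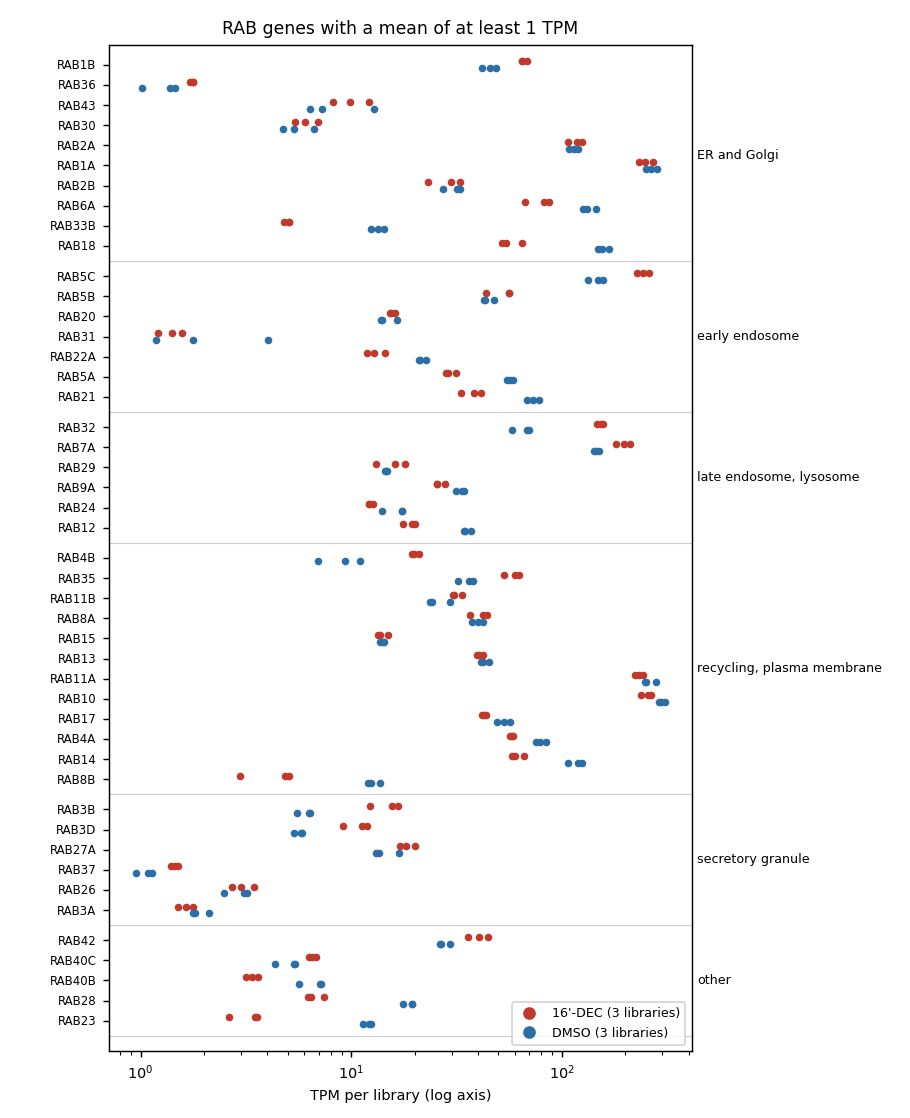
TPM (log axis) of the 46 RAB genes tested, grouped by the compartment each is best known for and ordered by change. Points are libraries, 3 with 16'-DEC (upper, red) and 3 with DMSO (lower, blue). RAB18, RAB5A and RAB32 are among the genes whose groups stand apart, while RAB1A, RAB2A and RAB8A overlap.

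RAB mRNA was unevenly spread over the family. Means over the 6 libraries ran from 1.25 TPM for RAB37 to 276 TPM for RAB10, and 9 members reached 100 TPM. With 16'-DEC, RAB10 (254 ± 14.4 TPM), RAB1A (250.4 ± 19.5 TPM), RAB5C (244 ± 16.4 TPM) and RAB11A (233 ± 10.8 TPM) led, and neighbours in this order lay within their spread (SD, n = 3). With DMSO the order was RAB10 (297 ± 10.9 TPM), RAB1A (266 ± 16.4 TPM) and RAB11A (260.2 ± 18.0 TPM), followed by RAB18 (157 ± 9.56 TPM), RAB5C (146 ± 11.9 TPM) and RAB7A (146 ± 4.06 TPM). TPM summed over all members were 2407 ± 108 with 16'-DEC and 2538 ± 34.8 with DMSO, with overlapping libraries. This sum and those by compartment or subfamily below are of TPM as deposited and were not taken with another scaling.

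**Figure D2:**
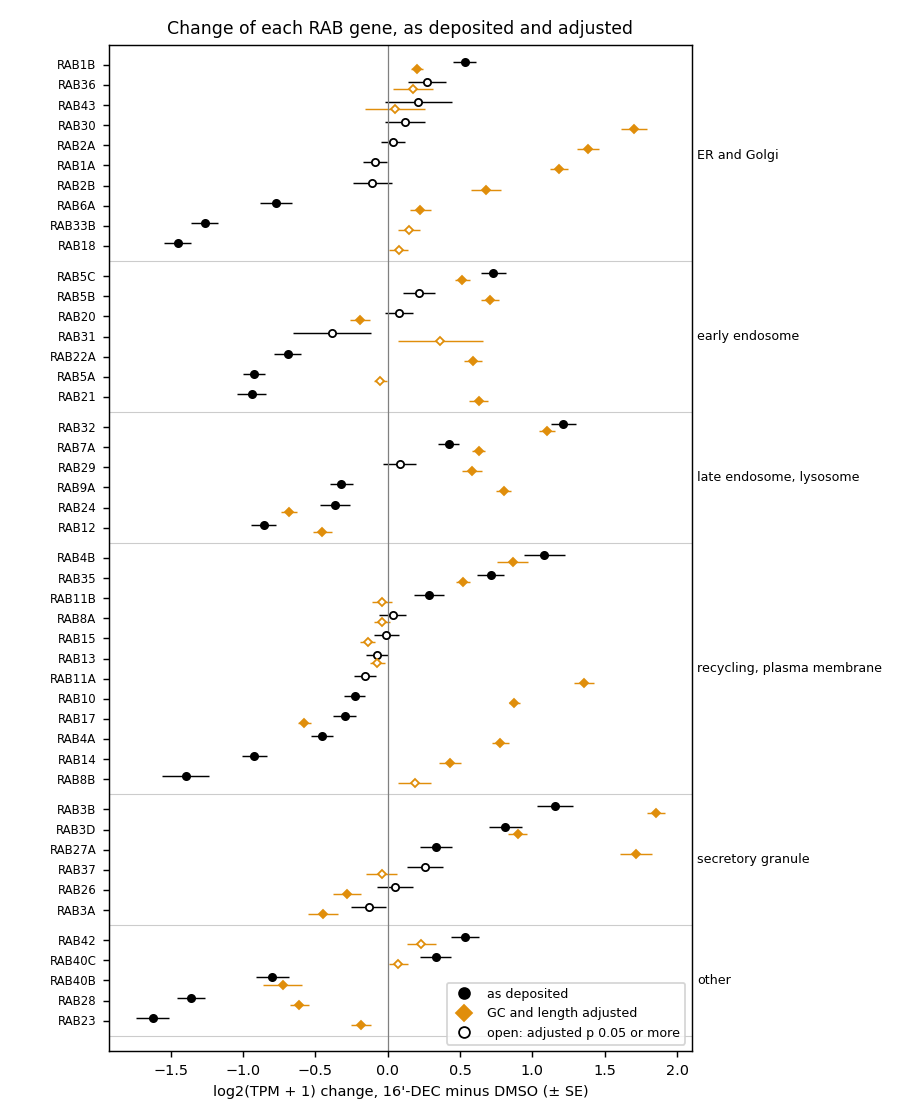
Change of each tested RAB gene (log2(TPM + 1), 16'-DEC minus DMSO, ± SE from limma) by compartment. Black circles are values as deposited, orange diamonds those after adjustment for GC content and length, and open symbols did not pass. RAB32 is at 1.21 and 1.10, while RAB18 is at -1.45 and 0.075.

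Among the 7 RAB genes of the early endosome, RAB5C rose, RAB5A, RAB21 and RAB22A fell, and 3 did not pass. Over all genes tested, 22.7% were higher and 48.9% lower. The RAB5 proteins recruit the tethers and the lipid kinase that let early endosomes fuse. RAB5C measured 260.4, 243 and 228 TPM with 16'-DEC, against 134, 148 and 157 TPM with DMSO. RAB5A measured 28.9, 31.4 and 28.1 TPM with 16'-DEC, against 56.6, 58.4 and 55 TPM with DMSO. The groups stood apart for both genes, in opposite directions. Their changes were 0.73 ± 0.0849 (adjusted p = 5.99e-05) and -0.92 ± 0.0768 (adjusted p = 7.22e-06; ± SE, limma, as for all changes that follow). After GC adjustment RAB5C was at 0.52 and still passed, and RAB5A was at -0.050 and did not (adjusted p = 0.375). RAB5B had 55.9, 56.3 and 43.7 TPM with 16'-DEC and 42.6, 43.0 and 47.4 TPM with DMSO. Its groups overlapped through 16'-DEC replicate 3, and its change of 0.22 (adjusted p = 0.105) fell short of the threshold. It passed at 0.34 without that library (adjusted p = 0.00531), with either scaling and after GC adjustment (0.71). RAB21, which works with integrins at endosomes, had 38.4, 41.5 and 33.2 TPM with 16'-DEC, against 78.1, 72.7 and 68.5 TPM with DMSO. RAB22A, which directs cargo from early to recycling endosomes, had 12.9, 14.4 and 11.8 TPM with 16'-DEC, against 22.7, 21.0 and 21.1 TPM with DMSO. Both were lower in every treated library, by 0.94 and 0.69 (adjusted p = 3.07e-05 and 1.61e-04), and both turned higher after GC adjustment (0.63 and 0.59). RAB20, a RAB of phagosomes, averaged 15.6 ± 0.448 TPM with 16'-DEC and 14.8 ± 1.55 TPM with DMSO and was not called (0.078, adjusted p = 0.476); it was called higher with either scaling and lower after GC adjustment (-0.19). RAB31, a close relative of RAB22A, had 1.21, 1.41 and 1.58 TPM with 16'-DEC and 1.78, 1.19 and 4.03 TPM with DMSO. DMSO replicate 3 stood above all other libraries, and the change of -0.38 did not pass (adjusted p = 0.231). It was -0.042 without that library and passed as lower without DMSO replicate 2 (-0.64, adjusted p = 0.0464). Summed TPM of the 7 genes were 393 ± 27.1 with 16'-DEC and 359 ± 9.11 with DMSO, with overlap.

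Genes of the late endosome and lysosome went both ways. Of 6 tested, 2 rose, 3 fell and 1 did not pass, where 22.7% of all genes tested were higher and 48.9% lower. RAB7A, which drives the fusion of late endosomes and autophagosomes with lysosomes, had 198, 210.2 and 181 TPM with 16'-DEC, against 145, 143 and 151 TPM with DMSO. It was higher in every treated library and rose by 0.42 ± 0.0757 (adjusted p = 9.21e-04). RAB32, which serves lysosome-related organelles and mitochondria, had 153, 147 and 157 TPM with 16'-DEC, against 57.9, 68.0 and 69.8 TPM with DMSO. On the log2(TPM + 1) scale, in the values as deposited, it had the largest rise among the RAB genes tested, 1.21 ± 0.0865 (adjusted p = 2.81e-06), and was at 1.10 after GC adjustment. RAB38, its paralog, was listed at 0 in all 6 libraries. RAB12, which guides receptors from recycling endosomes to lysosomes, had 17.7, 20.2 and 19.5 TPM with 16'-DEC, against 34.2, 37.3 and 34.8 TPM with DMSO. It fell by 0.86 (adjusted p = 1.98e-05), or by 0.45 after GC adjustment. RAB9A, which returns mannose 6-phosphate receptors to the Golgi, averaged 26.3 ± 1.25 TPM with 16'-DEC and 33.1 ± 1.48 TPM with DMSO. RAB24, linked to autophagosomes, averaged 12.3 ± 0.290 TPM with 16'-DEC and 16.3 ± 1.97 TPM with DMSO. They fell by 0.32 and 0.37 (adjusted p = 0.00534 and 0.0105), but both calls were lost with either scaling, where RAB9A was at 0.021 and 0.034 and RAB24 at -0.036 and 0.095. After GC adjustment the pair parted, with RAB9A higher (0.80) and RAB24 lower (-0.68). RAB24 shares 2284 bases with MXD3 on the same strand, so the source of some of its reads is uncertain. MXD3 was at 1.20, 1.34 and 1.18 TPM with 16'-DEC and 2.58, 3.28 and 3.86 TPM with DMSO. RAB29, which recruits the kinase LRRK2 to Golgi and lysosomal membranes, had 16.1, 17.9 and 13.1 TPM with 16'-DEC and 14.9, 14.5 and 14.7 TPM with DMSO and was not called at 0.082 (adjusted p = 0.533); it was called higher with either scaling and after GC adjustment (0.59). Summed over the 9 members of this group, TPM were 422 ± 13.1 with 16'-DEC and 311 ± 9.80 with DMSO, without overlap. RAB7A and RAB32 were the 2 that rose, and the median change of the 6 tested was -0.12.

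In the group of the endoplasmic reticulum and Golgi, 10 of 20 members were tested, and 1 rose, 3 fell and 6 did not pass. Among all genes tested, 22.7% were higher and 48.9% lower. RAB18, which binds the endoplasmic reticulum and lipid droplets, had 54.6, 64.5 and 52.1 TPM with 16'-DEC, against 168, 155 and 149 TPM with DMSO. It fell by 1.45 ± 0.0952 (adjusted p = 1.72e-06). RAB33B, a Golgi RAB that binds the autophagy protein ATG16L1, had 5.07, 5.05 and 4.80 TPM with 16'-DEC, against 13.4, 14.3 and 12.4 TPM with DMSO. RAB6A, which drives retrograde and secretory traffic at the Golgi, had 82.1, 87.4 and 66.7 TPM with 16'-DEC, against 146, 126 and 131 TPM with DMSO. These 3 genes were lower in every treated library, RAB33B by 1.26 and RAB6A by 0.77 (adjusted p = 3.20e-06 and 2.21e-04). After GC adjustment RAB18 was at 0.075 and RAB33B at 0.15 without passing, and RAB6A was called higher (0.23, adjusted p = 0.0243). RAB1B, which governs transport from the endoplasmic reticulum to the Golgi, had 68.0, 64.8 and 65.0 TPM with 16'-DEC, against 41.7, 48.8 and 45.6 TPM with DMSO, and rose by 0.53 (adjusted p = 3.18e-04; 0.20 after GC adjustment). Its far more abundant paralog RAB1A had 232, 271 and 249 TPM with 16'-DEC and 265, 283 and 251 TPM with DMSO, which overlapped (-0.089, 95% interval -0.27 to 0.096, adjusted p = 0.349). RAB2A and RAB2B, of the same route, averaged 117 ± 9.20 and 28.6 ± 5.00 TPM with 16'-DEC and 114 ± 5.38 and 30.6 ± 2.96 TPM with DMSO and did not pass (0.038 and -0.11). RAB30, a Golgi RAB, averaged 6.13 ± 0.764 TPM with 16'-DEC and 5.58 ± 1.009 TPM with DMSO (0.12). RAB36 averaged 1.75 ± 0.0315 TPM with 16'-DEC and 1.28 ± 0.232 TPM with DMSO (0.27). Neither passed (adjusted p = 0.449 and 0.0919). RAB2B overlaps TOX4 on the opposite strand (199, 182 and 125 TPM with 16'-DEC; 89.6, 90.7 and 106 TPM with DMSO). RAB2A and RAB30 were called higher with either scaling (adjusted p = 0.00526 and 0.0176 for RAB2A and 0.0153 and 0.00184 for RAB30), and RAB1A with median-of-ratios scaling (adjusted p = 0.0261). After GC adjustment RAB1A, RAB2A, RAB2B and RAB30 were called higher, from 0.68 to 1.70. RAB43 had 12.1, 9.86 and 8.23 TPM with 16'-DEC and 7.26, 12.9 and 6.38 TPM with DMSO, and DMSO replicate 2 was the highest of the 6. It shares its locus with the read-through gene ISY1-RAB43, so its reads are uncertain. Its change of 0.21 did not pass (adjusted p = 0.426), but passed with quantile normalization (adjusted p = 0.0189) and, at 0.49, without DMSO replicate 2 (adjusted p = 0.0268). RAB36 passed with either scaling and, at an adjusted p of 0.0357, without the mean trend. Summed TPM of the 20 members were 622 ± 41.3 with 16'-DEC and 777 ± 26.8 with DMSO, without overlap. Median-of-ratios scaling raised the median change of all genes by 0.29, and this sum was not retaken with it.

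Of 13 genes of recycling endosomes and the plasma membrane, 12 were tested: 3 rose, 5 fell and 4 did not pass. These counts are near the shares of all genes tested, 22.7% higher and 48.9% lower. RAB35, a regulator of endocytic recycling and cytokinesis, had 62.7, 59.8 and 53.3 TPM with 16'-DEC, against 32.2, 37.7 and 36.1 TPM with DMSO. RAB4B, a RAB of rapid recycling, had 19.5, 19.8 and 21.0 TPM with 16'-DEC, against 6.94, 11.0 and 9.33 TPM with DMSO. The changes of 0.71 and 1.08 passed (adjusted p = 1.29e-04 and 1.37e-04), with all treated libraries above all DMSO libraries. The read-through gene RAB4B-EGLN2, which covers the RAB4B locus, was listed at 0.394, 0.661 and 1.07 TPM with 16'-DEC and 0.193, 0.106 and 0.306 TPM with DMSO, so a part of the reads of RAB4B is uncertain. RAB14, which links the Golgi and endosomes, had 57.8, 66.2 and 59.9 TPM with 16'-DEC, against 119, 125 and 107 TPM with DMSO. RAB14 overlaps GSN on the opposite strand, which was at 65.9, 62.9 and 64.4 TPM with 16'-DEC and 58.9, 69.2 and 58.0 TPM with DMSO. RAB8B, a RAB of exocytosis and primary cilia, had 5.05, 4.83 and 2.98 TPM with 16'-DEC, against 13.7, 12.4 and 11.96 TPM with DMSO. They were lower in every treated library, by 0.92 and 1.40 (adjusted p = 1.57e-05 and 5.57e-05), but after GC adjustment RAB14 was called higher (0.43) and RAB8B did not pass (0.19). RAB4A, the major RAB4 gene here, averaged 57.8 ± 0.925 TPM with 16'-DEC and 79.6 ± 4.74 TPM with DMSO. It fell by 0.45 (adjusted p = 4.80e-04), did not pass with median-of-ratios scaling (-0.11, adjusted p = 0.266) and was higher after GC adjustment (0.78). RAB10, which carries GLUT4 vesicles in fat cells, averaged 254 ± 14.4 TPM with 16'-DEC and 297 ± 10.9 TPM with DMSO. RAB17, an epithelial RAB of recycling endosomes, averaged 42.9 ± 0.894 TPM with 16'-DEC and 53.0 ± 3.85 TPM with DMSO. They fell by 0.23 and 0.30 (adjusted p = 0.0166 and 0.00814), but with median-of-ratios scaling they stood at 0.12 and 0.048 without passing. After GC adjustment RAB10 was higher (0.87) and RAB17 lower (-0.57); with quantile normalization RAB10 stayed lower and RAB17 did not pass.

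The RAB11 proteins act in slow recycling. RAB11A had 222, 244 and 233 TPM with 16'-DEC and 281, 252 and 248 TPM with DMSO, and its change of -0.16 did not pass (95% interval -0.33 to 0.015, adjusted p = 0.0912), but it was higher after GC adjustment (1.35). It overlaps DENND4A on the opposite strand, which was at 11.6, 12.4 and 9.36 TPM with 16'-DEC and 32.7, 28.1 and 30.6 TPM with DMSO. RAB11B had 33.6, 30.5 and 30.7 TPM with 16'-DEC, against 23.7, 29.6 and 24.2 TPM with DMSO. Its libraries stood apart by a narrow margin, and the rise of 0.29 passed (adjusted p = 0.0302). That call was lost after GC adjustment (-0.039), and without 16'-DEC replicate 1 or 2 or DMSO replicate 1 or 3 (adjusted p = 0.103, 0.0512, 0.0984 and 0.0998). It was also lost without a filter on low TPM (adjusted p = 0.0764). RAB8A averaged 41.0 ± 3.77 TPM with 16'-DEC and 39.9 ± 2.54 TPM with DMSO, RAB13 40.6 ± 1.32 and 42.8 ± 1.86 TPM with 16'-DEC and DMSO, and RAB15 14 ± 0.825 and 14.1 ± 0.372 TPM with 16'-DEC and DMSO. These 3 genes, which act in exocytosis, tight junction traffic and endosomal recycling, were at 0.034, -0.074 and -0.0082 and did not pass, but all were higher with either scaling and not called after GC adjustment. Summed TPM of the 13 members were 859 ± 30.4 with 16'-DEC and 987 ± 27.6 with DMSO, without overlap. This sum too was not retaken with median-of-ratios scaling, which raised the median change of all genes by 0.29.

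RAB genes of secretory granules were mostly low in Huh7 cells, and of 6 tested 3 rose and 0 fell in the values as deposited, where 22.7% of all genes were higher and 48.9% lower. At an unadjusted p under 0.05 the limma fit of the deposited values also gave 3 higher and 0 lower. By the adjusted p, median-of-ratios scaling gave 4 higher and 0 lower, where 37.1% of all genes were higher and 37.7% lower. GC adjustment gave 3 higher and 2 lower, where 34.5% and 31.7% of all genes were. RAB3B and RAB3D, which act in regulated exocytosis, led the group. RAB3B had 15.7, 16.8 and 12.2 TPM with 16'-DEC, against 6.29, 5.56 and 6.37 TPM with DMSO. RAB3D had 11.9, 11.3 and 9.10 TPM with 16'-DEC, against 5.84, 5.36 and 5.77 TPM with DMSO. All treated libraries lay above the DMSO ones, and the changes of 1.16 and 0.81 passed (adjusted p = 3.74e-05 and 1.89e-04) and were 1.85 and 0.90 after GC adjustment. RAB3D overlaps TMEM205 on the same strand, which was at 44.9, 45.2 and 49.3 TPM with 16'-DEC and 27.1, 33.3 and 31.5 TPM with DMSO, so the source of some of its reads is uncertain. RAB27A, which docks secretory vesicles and the multivesicular bodies that release exosomes, had 17.1, 20.2 and 18.3 TPM with 16'-DEC, against 13.5, 13.2 and 16.9 TPM with DMSO. It shares 1930 bases with PIGBOS1, which was at 14.9, 15.2 and 14.9 TPM with 16'-DEC and 15.8, 16.8 and 15.4 TPM with DMSO. The rise of 0.33 passed (adjusted p = 0.0259) and was 1.71 after GC adjustment. It did not pass without 16'-DEC replicate 2 or DMSO replicate 1 or 2 (adjusted p = 0.0932, 0.0853 and 0.0903), nor without a filter on low TPM (adjusted p = 0.0751). RAB37 had 1.51, 1.46 and 1.39 TPM with 16'-DEC, against 0.948, 1.08 and 1.14 TPM with DMSO, and did not pass as deposited (0.26, adjusted p = 0.0952), but passed with either scaling and without the mean trend (adjusted p = 0.0214). RAB3A averaged 1.64 ± 0.129 TPM with 16'-DEC and 1.898 ± 0.183 TPM with DMSO, and RAB26 averaged 3.07 ± 0.372 TPM with 16'-DEC and 2.93 ± 0.381 TPM with DMSO. They were at -0.13 and 0.051 without passing, but after GC adjustment both were called lower (-0.45 and -0.28) and with quantile normalization both higher. Summed TPM of the 8 members were 50.3 ± 4.19 with 16'-DEC and 32.2 ± 2.55 with DMSO, without overlap.

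The 5 tested genes outside these compartments passed, 2 higher and 3 lower, where 71.5% of all genes tested passed. RAB23, a negative regulator of Hedgehog signalling, had 3.58, 3.51 and 2.63 TPM with 16'-DEC, against 12.4, 11.4 and 12.2 TPM with DMSO. Its fall by 1.62 ± 0.116 was the largest of the RAB genes tested in the values as deposited (adjusted p = 2.89e-06) and shrank to -0.18 after GC adjustment (adjusted p = 0.0493). RAB23 overlaps BAG2 on the opposite strand, which measured 14.2, 15.4 and 14.8 TPM with 16'-DEC and 57.2, 58.4 and 50.1 TPM with DMSO. RAB28, a RAB of ciliated cells, had 6.22, 7.46 and 6.45 TPM with 16'-DEC, against 19.4, 19.4 and 17.6 TPM with DMSO, and fell by 1.36 (adjusted p = 2.80e-06; -0.61 after GC adjustment). The RAB40 proteins carry a SOCS box that recruits a ubiquitin ligase, and their genes moved apart. RAB40B had 3.18, 3.38 and 3.62 TPM with 16'-DEC, against 7.12, 7.20 and 5.66 TPM with DMSO. RAB40C had 6.83, 6.34 and 6.54 TPM with 16'-DEC, against 4.34, 5.42 and 5.34 TPM with DMSO. RAB40B fell by 0.80 (adjusted p = 2.64e-04; -0.26 and not called with quantile normalization), and RAB40C rose by 0.33 (adjusted p = 0.0210). The call of RAB40C was lost after GC adjustment (0.075) and without 16'-DEC replicate 1 or DMSO replicate 1 (adjusted p = 0.0702 and 0.0695). RAB42 had 44.8, 40.5 and 35.9 TPM with 16'-DEC, against 26.7, 26.5 and 29.4 TPM with DMSO, and rose by 0.53 (adjusted p = 0.00102), a call lost after GC adjustment (0.23). RAB42 overlaps TAF12 on the opposite strand, which was at 22.3, 25.7 and 21.5 TPM with 16'-DEC and 34.4, 33.3 and 31.8 TPM with DMSO. The library protocol in the labels does not mark strand, so reads from such overlaps cannot be told apart.

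Close paralogs were compared by their ratio. For 13 pairs of genes that were both tested, the log2 ratio of the 2 genes, on TPM + 1, was taken within each library, where a scaling factor nearly cancels. The levels of 75.3% of single genes did not overlap between the groups, but no such share was taken for ratios of other genes. In 11 pairs the ratios of the groups did not overlap, and the shift was at least 1 on the log2 scale in 6. Each of the 11 had the smallest p that 3 against 3 libraries allow (exact permutation p = 0.1, 2-sided; 0.118 adjusted over the 13 pairs), so none could pass 0.05. The largest shifts were those of RAB5A over RAB5C (-1.65 ± 0.103), RAB4A over RAB4B (-1.54 ± 0.226) and RAB8A over RAB8B (1.43 ± 0.162; ± SE of the difference).

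The coding sequences of these paralogs, read from GENCODE 29 transcripts on GRCh38, show how nearly the same protein is written with different codons. Shown are the 14 codons that start at the conserved G3 motif of the GTPase, which opens switch II, for RAB5 and RAB8, which hold some of the largest shifts, and for RAB11, chosen for its difference in GC content. Capitals mark the third base of a codon where it is G or C.
RAB5A: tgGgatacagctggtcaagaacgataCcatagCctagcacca
RAB5B: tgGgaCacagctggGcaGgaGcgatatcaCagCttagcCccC
RAB5C: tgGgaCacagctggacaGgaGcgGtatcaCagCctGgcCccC
RAB8A: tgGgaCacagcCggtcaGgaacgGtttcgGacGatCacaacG
RAB8B: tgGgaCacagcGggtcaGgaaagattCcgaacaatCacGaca
RAB11A: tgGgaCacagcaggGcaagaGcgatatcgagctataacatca
RAB11B: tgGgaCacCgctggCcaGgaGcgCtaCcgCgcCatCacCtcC
Of these 14 codons, 3 end in G or C in RAB5A, 9 in RAB5B and 10 in RAB5C; the counts are 9 in RAB8A and 7 in RAB8B, and 4 in RAB11A and 13 in RAB11B. In the 14 codons from the P-loop, not shown, the counts are 5 in RAB5A, 4 in RAB5B, 10 in RAB5C, 13 in both RAB8 genes, 3 in RAB11A and 13 in RAB11B, so the order of RAB5A and RAB5B and the gap within RAB8 depend on the window. The genes lie at chr3:19947079-19985175, chr12:55973913-55996683, chr17:42124976-42155044 (minus strand), chr19:16111629-16134234, chr15:63189469-63267782, chr15:65726054-65891991 and chr19:8389981-8404434, in the order of the sequences.

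The RAB5 subfamily differed between the groups in its make-up and its sum. RAB5A and RAB5C share 188 of 215 aligned residues (87.4%, from the translated coding sequences), and 125 of those 188 residues use another codon. RAB5A made up 9.08% ± 0.624 of RAB5 TPM with 16'-DEC and 23.0% ± 1.61 with DMSO, and RAB5C made up 75.0% ± 1.34 with 16'-DEC and 59.1% ± 1.60 with DMSO (SD, n = 3 each). The libraries did not overlap in either share. Summed RAB5 TPM were 325 ± 23.5 with 16'-DEC and 247 ± 13.5 with DMSO. GC content over the whole transcript was 42.0% in RAB5A, 46.3% in RAB5B and 55.8% in RAB5C, the order of their changes. After GC adjustment the shift of RAB5A over RAB5C was -0.57. RAB5A over RAB5B shifted by -1.14 ± 0.115 (-0.76 after GC adjustment) and RAB5B over RAB5C by -0.51 ± 0.0865, which turned to 0.19.

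RAB4 and RAB8 showed the same kind of shift. RAB4B made up 25.8% ± 0.784 of RAB4 TPM with 16'-DEC and 10.3% ± 2.62 with DMSO, and the shift of RAB4A over RAB4B was -0.084 after GC adjustment. RAB8B made up 9.36% ± 1.66 of RAB8 TPM with 16'-DEC and 24.2% ± 2.47 with DMSO, and the shift of RAB8A over RAB8B turned to -0.23 after GC adjustment. Transcript GC content was 39.3% in RAB4A and 56.5% in RAB4B, and 54.1% in RAB8A and 36.2% in RAB8B. In each pair the gene of lower GC content lost share.

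Of the 13 pairs, those of RAB1 and RAB11 have the largest differences in GC content. Their shifts were smaller than those of RAB5A over RAB5C, RAB4 and RAB8. The part of GC content in these shifts was not tested. RAB11A and RAB11B share 199 of 216 aligned residues (92.1%), and 135 of those residues use another codon; their transcripts have a GC content of 37.2% and 63.5%. The shift of RAB11A over RAB11B was -0.44 ± 0.156 and turned to 1.39 after GC adjustment. RAB1A over RAB1B shifted by -0.62 ± 0.104, and by 0.99 after that adjustment. In the RAB3 subfamily GC content is 59.8% in RAB3A, which lost share, and 44.8% in RAB3B. RAB3A made up 6.07% ± 0.533 of RAB3 TPM with 16'-DEC and 13.97% ± 1.91 with DMSO, and the ratio of RAB3A over RAB3B shifted by -1.29 ± 0.145, or by -2.30 after GC adjustment. That adjustment also takes out transcript length, which is 1528 bases in RAB3A and 12844 bases in RAB3B. RAB3A over RAB3D shifted by -0.94 ± 0.109 and RAB3B over RAB3D by 0.35 ± 0.0548. RAB40B over RAB40C shifted by -1.13 ± 0.165. RAB2A over RAB2B (0.14 ± 0.163, exact permutation p = 0.7) and RAB22A over RAB31 (-0.31 ± 0.382, exact permutation p = 0.5) had overlapping ratios. In 9 of 13 pairs the shift favoured the paralog of higher GC content, and after GC adjustment it did in 4; pairs that share a gene are not independent.

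**Figure D3:**
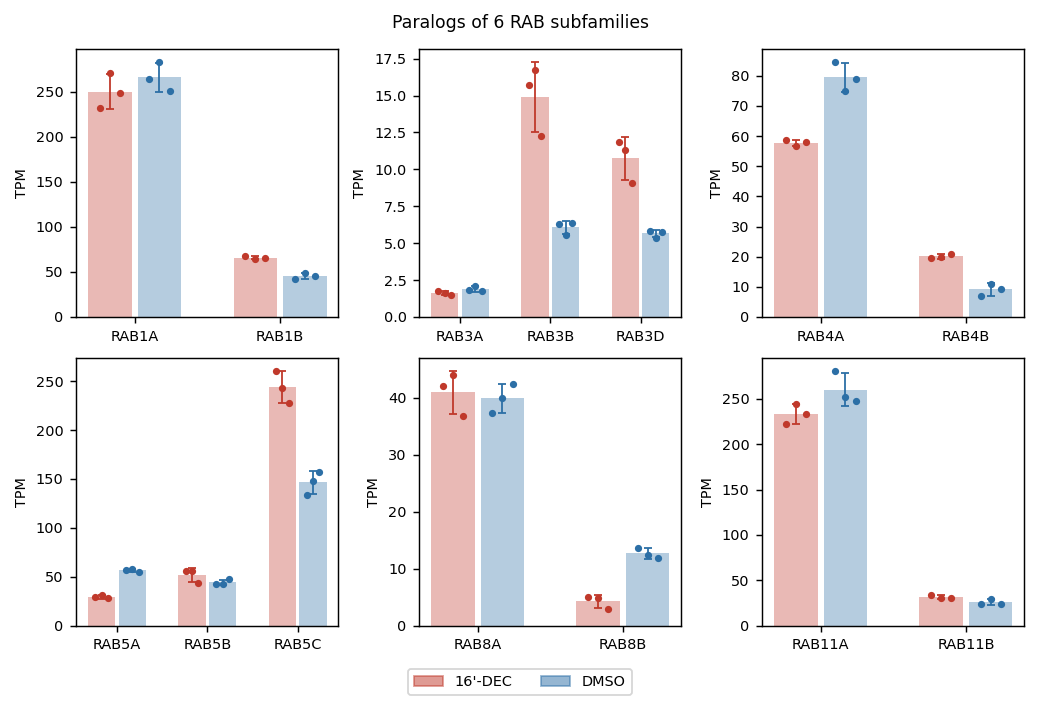
TPM of the paralogs in 6 RAB subfamilies. Bars are means and error bars SD of 3 libraries, points are libraries, red with 16'-DEC and blue with DMSO. RAB5A and RAB8B are lower and RAB5C, RAB4B, RAB3B and RAB3D higher with 16'-DEC, while RAB1A and RAB8A overlap between the groups. After GC adjustment RAB5A and RAB8B did not pass.

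Across the 46 RAB genes tested, the change rose with the GC content of the transcript (Pearson's r = 0.557, Spearman's rho = 0.557; the genes share all 6 libraries and are not independent). Over 13291 tested genes with a transcript in GENCODE 29, rho was 0.680. GC content at the third codon position and GC content of the 3′ untranslated region gave rho = 0.562 and 0.591 in the RAB genes, so the coding and untranslated parts could not be told apart. After adjustment rho with transcript GC content was -0.47 in the RAB genes and 0.0209 over all genes. The part of GC content in these changes was not tested.

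Of 21 RAB genes under 45% GC, 2 rose, 13 fell and 6 were not called (median -0.45). All 4743 tested genes in that range had a median of -1.11, and 3.54% rose and 85.4% fell. RAB3B and RAB27A were the 2 that rose. Of 16 RAB genes at 55% GC or more, 7 rose, 2 fell and 7 did not pass (median 0.26), where the 4022 genes in that range had a median of 0.24, with 46.7% higher and 14.5% lower. RAB17 and RAB24 were the 2 that fell. Between these limits 3 of 9 rose (RAB3D, RAB7A and RAB32) and 2 fell (RAB12 and RAB40B), with a median of 0.082. The 4526 genes in that range had a median of -0.15, with 24.3% higher and 39.9% lower.

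**Figure D4:**
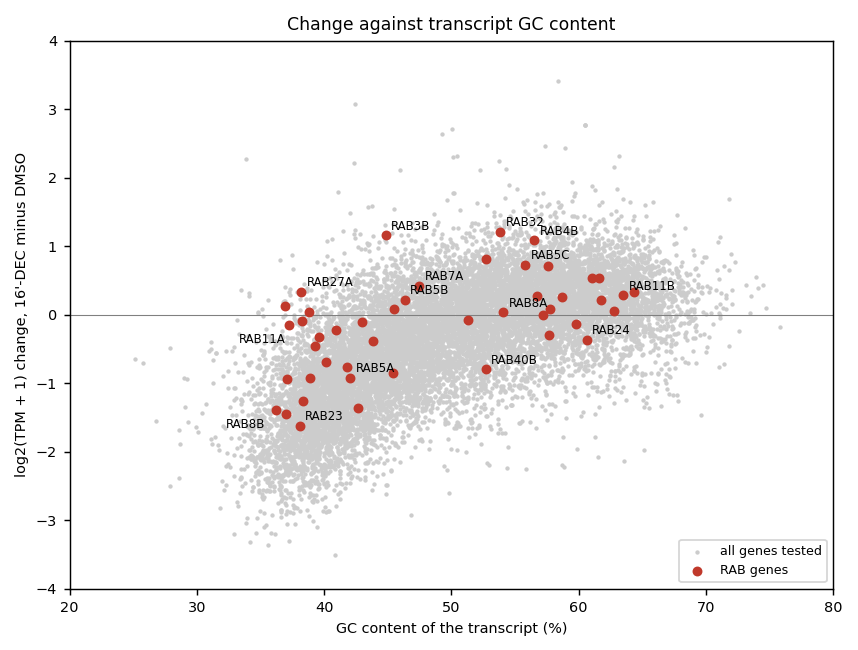
Change (log2(TPM + 1), 16'-DEC minus DMSO) against GC content of the transcript. Grey points are all tested genes with a transcript in GENCODE 29 and red points the 46 RAB genes. RAB23 and RAB8B lie low at a low GC content, and RAB27A and RAB3B lie above most genes of like GC content.

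Among the genes that handle RAB proteins, some rose and others fell. Of 11 genes of prenylation and GDI cycling, 5 rose, 4 fell and 2 did not pass (median 0.15), where 22.7% of all genes tested were higher and 48.9% lower. The escort proteins that present new RABs for prenylation fell: CHM had 6.28, 6.96 and 6.38 TPM with 16'-DEC, against 29.4, 29.7 and 27.8 TPM with DMSO, and CHML had 2.38, 2.51 and 1.81 TPM with 16'-DEC, against 17.4, 16.3 and 18.4 TPM with DMSO. Their changes were -1.99 and -2.51 (adjusted p = 1.98e-07 and 2.60e-07), or -0.44 and -0.92 after GC adjustment, still passing. RABAC1, a membrane protein that receives RABs from GDI, had 61.5, 61.3 and 69.1 TPM with 16'-DEC, against 21.1, 25.3 and 22.7 TPM with DMSO. It was higher in every treated library and rose by 1.44 (adjusted p = 1.54e-06). After GC adjustment 7 of the list were higher and 3 lower, where 34.5% of all genes were higher and 31.7% lower.

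Of 49 tested GEF genes and subunits, 14 rose, 24 fell and 11 did not pass (median -0.21), close to the shares of all genes tested (22.7% higher and 48.9% lower, median -0.31). TRAPPC1 and TRAPPC3, core subunits of the TRAPP complexes that activate RAB1 and RAB11, averaged 141 ± 2.05 and 145 ± 1.24 TPM with 16'-DEC and 78.9 ± 5.64 and 84.0 ± 5.02 TPM with DMSO, and rose by 0.83 and 0.78 (adjusted p = 1.21e-05 and 1.26e-05). TRAPPC8 and TRAPPC6B of the same complexes averaged 10.1 ± 0.355 and 17.5 ± 2.73 TPM with 16'-DEC and 38.3 ± 1.32 and 52.1 ± 2.08 TPM with DMSO, at -1.83 and -1.53 (adjusted p = 2.07e-07 and 3.48e-06). After GC adjustment TRAPPC8 still passed (-0.64) and TRAPPC6B did not (-0.028). The list then had 18 higher and 10 lower, where 34.5% of all genes were higher and 31.7% lower. With median-of-ratios scaling 22 were higher and 19 lower, where 37.1% and 37.7% of all genes were.

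Of 36 tested genes listed here as GAPs, 10 rose, 18 fell and 8 did not pass (median -0.26). These counts were again close to the 22.7% higher and 48.9% lower of all genes. Whether each acts as a GAP was not tested. TBC1D30 averaged 11.9 ± 0.352 TPM with 16'-DEC and 6.00 ± 0.542 TPM with DMSO and rose by 0.88 (adjusted p = 3.74e-05). TBC1D10A, a GAP for RAB27A and RAB35, averaged 8.52 ± 0.795 TPM with 16'-DEC and 4.73 ± 0.607 TPM with DMSO and rose by 0.73 (adjusted p = 4.29e-04). TBC1D15, a GAP for RAB7, and TBC1D23, a golgin-binding protein, averaged 8.01 ± 0.573 and 13.4 ± 1.012 TPM with 16'-DEC and 23.9 ± 1.42 and 40.8 ± 1.62 TPM with DMSO. They were at -1.47 and -1.54 (adjusted p = 1.20e-06 and 6.52e-07) and did not pass after GC adjustment (0.13 and -0.064). That adjustment left 13 of the list higher and 11 lower, near the 34.5% and 31.7% of all genes. With median-of-ratios scaling 16 were higher and 15 lower, against 37.1% and 37.7% of all genes.

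Of 58 tested effector genes, 14 rose, 29 fell and 15 did not pass (median -0.27), near the shares of all genes (22.7% and 48.9%). PLIN3 is a lipid droplet protein listed here as a RAB9 effector. It had 176, 165 and 172 TPM with 16'-DEC, against 50.4, 59.1 and 62.2 TPM with DMSO. PLEKHM1, which binds RAB7 and the fusion machinery of lysosomes, had 45.7, 42.9 and 33.2 TPM with 16'-DEC, against 16.4, 18.3 and 15.99 TPM with DMSO. Both were higher in every treated library, by 1.57 and 1.21 (adjusted p = 8.12e-07 and 2.71e-05), and by 1.29 and 1.08 after GC adjustment. RAB11FIP2, which couples RAB11 to myosin V, had 3.83, 3.71 and 3.27 TPM with 16'-DEC, against 26.0, 22.3 and 26.1 TPM with DMSO. HOOK1, a cargo adaptor of dynein, had 5.79, 4.98 and 4.31 TPM with 16'-DEC, against 35.2, 33.5 and 33.9 TPM with DMSO. They fell by 2.49 and 2.55 (adjusted p = 1.77e-07 and 1.83e-07) and still passed after GC adjustment (-0.90 and -0.97). That adjustment left 21 of the list higher and 23 lower, where 34.5% and 31.7% of all genes were. With median-of-ratios scaling 26 were higher and 21 lower (37.1% and 37.7% of all genes).

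**Figure D5:**
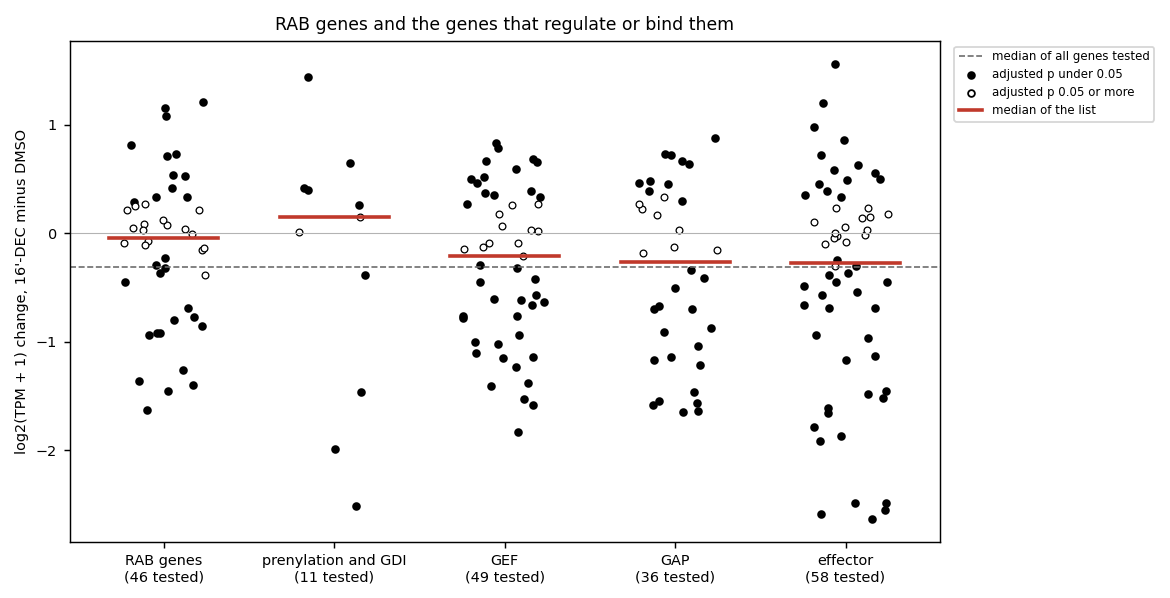
Change (log2(TPM + 1), 16'-DEC minus DMSO) of the RAB genes and of the 4 lists of genes that regulate or bind them. Points are genes, filled where the adjusted p was under 0.05, red bars are list medians and the dashed line is the median of all genes tested (-0.31). The list medians run from -0.27 for effectors to 0.15 for prenylation and GDI genes.

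The other 18 RAB genes had a mean under 1 TPM and were not tested. RAB38 and RAB39A were listed at 0 in all 6 libraries, and no other value of the 18 exceeded 0.527 TPM. RAB6B, a Golgi RAB of neurons, had 0.488, 0.514 and 0.494 TPM with 16'-DEC and 0.513, 0.487 and 0.400 TPM with DMSO. RAB34 had 0.174, 0.525 and 0.376 TPM with 16'-DEC and 0.299, 0.356 and 0.321 TPM with DMSO. RAB9B, the paralog of RAB9A, had 0.123, 0.131 and 0.123 TPM with 16'-DEC and 0.377, 0.527 and 0.236 TPM with DMSO. The groups overlapped for RAB6B and RAB34 and stood apart for RAB9B, as for 6 of the 18. The share of 75.3% covers only genes of at least 1 TPM. None was taken for genes below that, so this count cannot be set against other genes. RAB6C and RAB6D are near copies of RAB6A, and RAB1C is annotated as a processed pseudogene, so their values of up to 0.123 TPM are uncertain.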

How the data were processed

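The authors deposited 1 table of TPM per gene for 3 libraries of Huh7 cells with 16'-DEC and 3 with DMSO; the labels give random-primed cDNA from poly(A) RNA. Per the submitters' processing notes the tools were HTSeq 0.6.1, HISAT2 2.0.1, DESeq2 and cutadapt 1.9.1, and the genome GRCh38. The sources used here state neither the gene lengths nor the annotation, and depth is unknown from TPM.

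Genes averaging 1 TPM or more were fitted as log2(TPM + 1) with limma 3.58.1 (R 4.3.3; empirical Bayes with a mean trend, Benjamini-Hochberg over all genes tested, threshold 0.05), a step tested on simulated data. Paralog ratios were compared with a 2-sided exact permutation test. RAB genes were assigned to compartments, pairs and regulator lists by hand from general knowledge. The members, lists and tests were chosen with earlier results of these data known. Named genes are all RAB genes tested and, in each list of regulators, the 2 of smallest adjusted p in each direction past the threshold; RAB11 was added to the sequences shown after its values were seen, for its difference in GC content. Some items that this rule names are not reported here. GC content, overlaps and coding sequences came from GENCODE 29 on GRCh38, with 1 transcript per gene (APPRIS principal, then basic, then the longest). No table of protein sequences was used here; identities come from the translated coding sequences. Alternatives were other pseudocounts, filters, scalings (median of ratios, quantile), a GC and length adjustment, a replicate block, a fit with no mean trend, leaving out each library, and a threshold of 0.01.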

Additional observations from a re-analysis of the deposited data

How the results depend on the processing

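As deposited, 3236 genes were higher and 6974 lower. Median-of-ratios scaling gave 5290 genes higher, with 23 RAB genes higher at a median of 0.29, and quantile normalization gave 5990 genes higher, with 25 RAB genes higher at a median of 0.30. GC and length adjustment gave 4213 genes lower, with 23 RAB genes higher and 9 lower at a median of 0.23. That adjustment together with the replicate block gave 4339 of 13291 genes higher and 3982 lower. It left 23 RAB genes higher and 6 lower at a median of 0.23. Signs turned under GC and length adjustment, at the same values with and without the block, in RAB10 (0.87), RAB11A (1.35), RAB11B (-0.039), RAB14 (0.43), RAB18 (0.075), RAB1A (1.19), RAB20 (-0.19), RAB21 (0.63), RAB22A (0.59), RAB26 (-0.28), RAB2B (0.68), RAB31 (0.36), RAB33B (0.15), RAB37 (-0.042), RAB4A (0.78), RAB6A (0.23), RAB8A (-0.038), RAB8B (0.19) and RAB9A (0.80). Pairs that turned were RAB1A/RAB1B (0.99), RAB5B/RAB5C (0.19), RAB8A/RAB8B (-0.23), RAB11A/RAB11B (1.39) and RAB22A/RAB31 (0.23). With median-of-ratios scaling RAB10 (0.12), RAB11A (0.19), RAB13 (0.27), RAB15 (0.32), RAB17 (0.048), RAB1A (0.26), RAB2B (0.23), RAB3A (0.093) and RAB9A (0.021) turned, and with quantile normalization RAB13 (0.22), RAB15 (0.45), RAB24 (0.095), RAB2B (0.25), RAB31 (0.11), RAB3A (0.37) and RAB9A (0.034) did. The cause was not tested. Fits without 1 library called 2773 to 3426 of 14275 genes higher and 6670 to 6754 lower. Leaving out 1 library gave 9 to 13 RAB genes higher and 17 to 18 lower. It turned genes and 1 pair that were not called, over ranges of -0.053 to 0.022 for RAB15, -0.031 to 0.11 for RAB26, -0.012 to 0.20 for RAB29, -0.012 to 0.10 for RAB2A, -0.21 to 0.035 for RAB2B, -0.019 to 0.11 for RAB8A and -0.010 to 0.24 for RAB2A/RAB2B. Other pseudocounts changed no call of a RAB gene. A threshold of 0.01 left 9 RAB genes higher and 15 lower, against 2523 and 6113 of 14275 genes. Libraries with the same replicate number did not deviate together (correlations 0.0941, -0.182 and -0.0726). The replicate block gave 11 RAB genes higher and 17 lower, against 3014 and 6823 of 14275 genes. It ended the call of RAB11B (adjusted p = 0.0548) and of no other RAB gene. Added to the GC and length adjustment, the block ended the lower calls of RAB20, RAB23 and RAB26 (adjusted p = 0.0775, 0.104 and 0.0590). Depth is not known from TPM, so counting error could not be given.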
